A study of Mus musculus with 9 samples.

Results

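Splenic B cells were compared at the level of mRNA in 3 sorted subsets, and the genes described here are those whose level was graded, with the IgD low follicular subset named BDL between IgD high follicular (FO) and marginal zone (MZ) B cells. A gene was selected on its measured values: its mean over the 9 libraries was at least 0.5 FPKM (fragments normalized for the length of the transcript and the total of mapped fragments), its subset means rose, or fell, at least 1.5-fold from FO to BDL and again from BDL to MZ, and no value overlapped between neighbouring subsets. Of the 11597 rows that reached this minimum, out of 24459 in the table, 177 were graded. Of these, 141 rose from FO over BDL to MZ, which is 1.22% of the rows tested, and 36 fell, which is 0.31%. Because the values in all 9 libraries chose these genes, their folds and levels are descriptions and carry no test.

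All 9 libraries came from spleens of naive mice 8 to 10 weeks old. The strain is C57/BL6 in the labels, whereas the study describes the sequenced subsets as sorted from B10.PL mice, and which of these applies was not tested. FO and BDL cells shared the gate B220+IgMintCD21intCD23+CD93- and were split by surface IgD, and MZ cells were sorted as B220+IgMhiCD21hiCD23-CD93-. Each subset had 3 libraries, 1 per sort date, and each sort pooled 5 mice, so that replicates 1 to 3 are pools and not single animals. CD21, CD23 and the level of IgM separated the MZ gate from the follicular gate, so that the levels of their genes between MZ cells and the follicular subsets are no finding. CD93 was set as negative in every gate. None of the genes of CD21, CD23 and CD93 was graded. Of 11 listed genes of B lineage identity, Pax5 and Ebf1 among them, limma called 0 in any of the pairwise comparisons (adjusted p under 0.05 and at least 2-fold). Over all rows tested, 0.267% to 5.54% were called in a given direction and comparison, so that 0 of 11 lies near the background. In sorted bulk samples, a level between that of FO and MZ cells can come from all BDL cells or from a share of them, and fewer cells of a type and less RNA per cell cannot be told apart.

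Follicular B cells recirculate through the B cell follicles of spleen and lymph nodes and take part mostly in T cell dependent antibody responses. Marginal zone B cells stay at the border of the splenic white pulp, where they meet blood-borne antigen. They depend on Notch2 signalling through the DNA-binding protein RBPJ, on integrins and on sphingosine 1-phosphate receptors that hold them in place, and they respond quickly to microbial products. IgD is carried at a high level by most follicular B cells and at a low level by marginal zone B cells, so that BDL share 1 surface feature with the latter and the remaining gate with the former.

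The promoters of the graded genes were read from RefSeq on build GRCm38.p6, as 250 bases before to 50 bases after the start of the gene. The measurements were made on mm9 and no coordinate was converted. Of the rising genes 107 and of the falling genes 28 had such an entry, against 8894 of the 11519 symbols tested. The first pair of sequences is shown for RBPJ, the nuclear partner of Notch, because Hes5, a Notch target, and Cd9, a marker of MZ B cells, rose at both steps. Capitals mark TGGGAA, the RBPJ core searched on both strands, whose letters overlap those of the NF-kB motif also searched.
Hes5 promoter, chr4:154960673-154960972, plus strand: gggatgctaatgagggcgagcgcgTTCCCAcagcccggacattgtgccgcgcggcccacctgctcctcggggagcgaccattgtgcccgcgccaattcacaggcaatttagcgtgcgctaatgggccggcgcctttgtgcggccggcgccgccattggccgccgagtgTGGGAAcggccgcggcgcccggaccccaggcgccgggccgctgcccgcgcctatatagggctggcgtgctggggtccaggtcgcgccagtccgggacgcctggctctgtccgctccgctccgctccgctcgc
Cd9 promoter, chr6:125494711-125495010, minus strand: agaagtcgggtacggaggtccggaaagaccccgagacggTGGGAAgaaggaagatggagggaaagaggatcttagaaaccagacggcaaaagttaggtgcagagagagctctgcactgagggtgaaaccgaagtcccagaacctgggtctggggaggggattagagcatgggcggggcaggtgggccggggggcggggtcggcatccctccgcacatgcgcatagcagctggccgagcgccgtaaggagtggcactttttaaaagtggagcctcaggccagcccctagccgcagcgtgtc
The Hes5 window held 2 matches, which began 226 and 82 bases before the start, and the Cd9 window held 1, 211 bases before it. This motif was found in 19 of the 107 rising promoters (17.8%), in 5 of the 28 falling promoters (17.9%) and in 22.5% of all promoters of tested genes.

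The second pair is shown for CCACCC, the core bound by KLF factors, because Itgb7 and the kinase gene Mapk11 fell at both steps and held several copies. Capitals mark the motif on either strand, and in Mapk11 neighbouring copies overlap.
Itgb7 promoter, chr15:102231886-102232185, minus strand: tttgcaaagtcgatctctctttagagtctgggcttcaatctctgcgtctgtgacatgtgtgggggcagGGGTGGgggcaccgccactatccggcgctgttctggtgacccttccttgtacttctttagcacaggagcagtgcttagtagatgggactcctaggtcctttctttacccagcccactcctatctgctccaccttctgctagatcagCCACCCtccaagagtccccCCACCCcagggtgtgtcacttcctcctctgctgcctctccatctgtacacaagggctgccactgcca
Mapk11 promoter, chr15:89149557-89149856, minus strand: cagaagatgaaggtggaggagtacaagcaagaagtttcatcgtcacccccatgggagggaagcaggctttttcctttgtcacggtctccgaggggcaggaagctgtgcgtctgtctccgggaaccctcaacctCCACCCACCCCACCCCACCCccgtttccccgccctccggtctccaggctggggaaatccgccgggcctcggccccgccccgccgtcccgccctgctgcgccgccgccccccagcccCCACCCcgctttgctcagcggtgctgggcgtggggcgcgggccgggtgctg
Itgb7 held 3 matches and Mapk11 held 5. Several copies were also found in promoters of rising genes, with 6 in Rragd and 3 each in Pde4a and Nedd4. The motif was found in 16 of the 28 falling promoters (57.1%), in 36 of the 107 rising promoters (33.6%) and in 35.4% of all promoters of tested genes. The other motifs were found in few promoters. NF-kB sites were found in 2 rising and 1 falling promoters, the E2F sites TTTGGCGC or TTTCGCGC in 1 rising promoter, an EBF1 site in 1 rising promoter and the PU.1 site GAGGAAGT in 7 rising and 1 falling promoters. Over all tested promoters these shares were 0.573%, 1.84%, 0.956% and 3.45%. The E boxes CAGCTG or CAGGTG were found in 32.7% of rising, 35.7% of falling and 28.6% of all promoters. The median number of CpG dinucleotides per promoter was 15 in rising, 14 in falling and 21 in all tested genes. A match of letters is not a site shown to be bound.

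The steps were unequal in most graded genes. Among the rising genes, the median ratio of means was 2.0 from FO to BDL (range 1.51 to 14.1) and 2.95 from BDL to MZ, and the second step was the larger in 100 of 141. Among the falling genes, the median drop was 1.76-fold from FO to BDL and 3.8-fold from BDL to MZ, and the second step was the larger in 32 of 36. From FO to MZ the median ratio was 6.24 in rising and 6.73 in falling genes. Both steps reached 2-fold in 55 rising and in 8 falling genes.

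**Figure D1:**
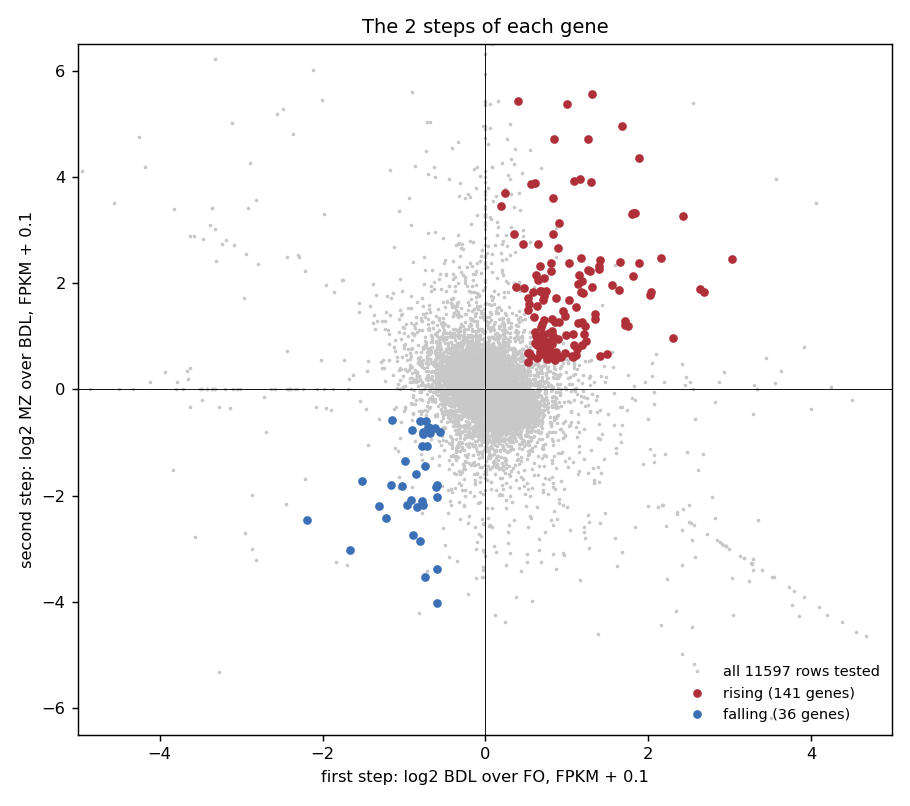
Each point is a gene, with the log2 ratio of BDL over FO on the x axis and of MZ over BDL on the y axis, both from FPKM + 0.1. Grey points are the 11597 rows tested, of which 34 lie outside the axes, none of them graded; the 141 rising genes (red) and the 36 falling genes (blue) lie in opposite corners because of the rule, and more of them lie far along the y axis than along the x axis.

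A linear position was then computed for each graded gene, as the share of the FO to MZ difference in mean FPKM that was already covered in BDL. It was 21.9% at the median of the rising genes and reached 52.8% in Nusap1. In 17 rising genes it was below 5%, and in 2, Nusap1 and Cdca5, it was above 50%. In the falling genes it was 56.5% at the median, with a range from 35.4% in Wfdc17 to 79.4% in Slc26a10. The directions cannot be compared on this scale, because the rule itself keeps a rising gene below 66.7% and a falling gene above 33.33%. On the log scale, BDL covered a median of 43.1% of the way in rising and 33.5% in falling genes. The median linear position of the rising genes was 23.6%, 19.4% and 18.5% when computed within sort dates 1, 2 and 3, and that of the falling genes was 54.7%, 55.8% and 60.8%.

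**Figure D2:**
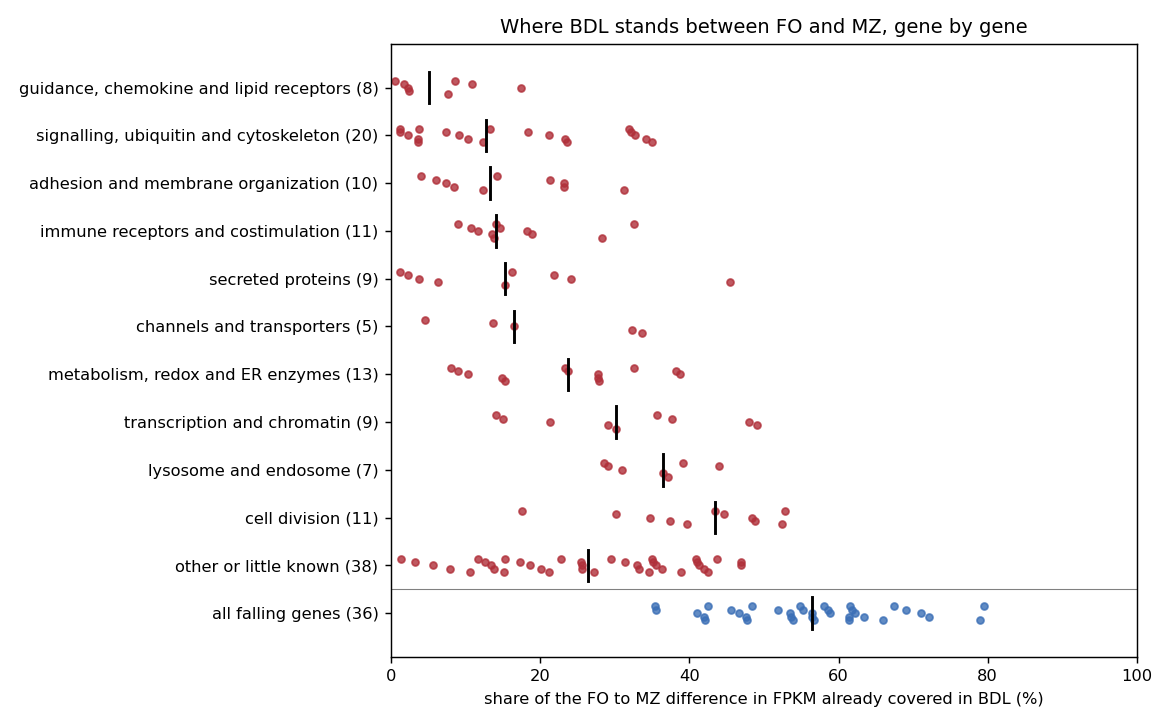
Each point is a graded gene, placed by the share of the FO to MZ difference in mean FPKM that BDL covered (x axis, percent) and grouped by role (y axis, number of genes in parentheses), with black bars at the medians. Receptors for guidance cues, chemokines and lipids lie lowest among the rising groups, with a median of 5.04%, and cell division genes lie highest, with a median of 43.4%. The 36 falling genes share the bottom line and have a median of 56.5%.

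Roles were assigned by hand from the gene names after the values were seen, so that the groups below order the description and support nothing. Receptors for guidance cues, chemokines and lipids were the rising group in which BDL covered the smallest median share of the FO to MZ difference, 5.04%, although their median first step was larger than that of every other rising group but the secreted proteins. In all 8 of them the second step was the larger, and the median ratio was 3.22 at the first step and 13.7 at the second.

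Plxnd1, a receptor for semaphorins, was an example. Its level was 0.769, 0.693 and 0.859 FPKM in FO, 4.42, 4.62 and 4.75 in BDL and 39.7, 42.1 and 53.7 in MZ. The first step was 5.94-fold and the second 9.82-fold, and the BDL libraries differed little from each other. Ackr3, an atypical receptor that takes up the chemokine CXCL12, read 0.294, 0.846 and 0.558 FPKM in FO, 1.45, 2.78 and 1.70 in BDL and 47.2, 63.6 and 81.2 in MZ. BDL covered 2.22% of that difference. Ackr2, which takes up inflammatory CC chemokines, read 0.834 to 1.19 FPKM in FO, 2.79 to 5.05 in BDL and 38.2 to 41.2 in MZ. S1pr3, a sphingosine 1-phosphate receptor, read 1.16, 1.27 and 1.02 FPKM in FO, 2.25, 2.0 and 2.18 in BDL and 61.5, 41.6 and 78.5 in MZ. Here the BDL mean was 1.86-fold above FO and 28.2-fold below MZ. The semaphorin and VEGF co-receptor gene Nrp2, the chemokine receptor gene Ccr1 and the lysophospholipid receptor gene Gpr55, which were named after their values were seen, belong to the same group, and their MZ means were 13.7 to 29.5-fold above FO.

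Secreted proteins included the members with the steepest gradients. Il10, which encodes the anti-inflammatory cytokine IL-10, read 0.144, 0.165 and 0.145 FPKM in FO, 0.885, 1.15 and 0.543 in BDL and 18.0, 22.0 and 16.5 in MZ. BDL were thus 5.68-fold above FO, and 21.9-fold below MZ, and covered 3.79% of the difference. Lipc, the gene of hepatic lipase, had the largest first step of all graded genes, from a low level in FO. Its FO libraries held only 9.63 to 19.2 fragments, as estimated from the spacing of low values. It read 0.0924, 0.173 and 0.0837 FPKM in FO, 1.80, 1.42 and 1.71 in BDL and 8.54, 8.79 and 11.2 in MZ, which makes 14.1-fold at the first step and 5.78-fold at the second. Serpine2, a protease inhibitor, read 0.0517 to 0.125 FPKM in FO, 0.330 to 0.382 in BDL and 10.0 to 16.1 in MZ. Its FO libraries held 7.18 to 16.7 estimated fragments. Adamdec1, a secreted metalloprotease, read 0.0144 to 0.0361 FPKM in FO, 0.0381 to 0.0530 in BDL and 1.03 to 1.93 in MZ, with 2.09 to 5.25 fragments per FO library, as estimated from the spacing of low values. Cfp, which encodes properdin, the stabilizer of the alternative complement convertase, was chosen for mention after its values were seen because BDL stood near the middle. Its level was 5.90, 6.03 and 6.21 FPKM in FO, 32.3, 31.9 and 26.7 in BDL and 55.1, 62.2 and 60.7 in MZ, so that BDL covered 45.5% of the difference.

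**Figure D3:**
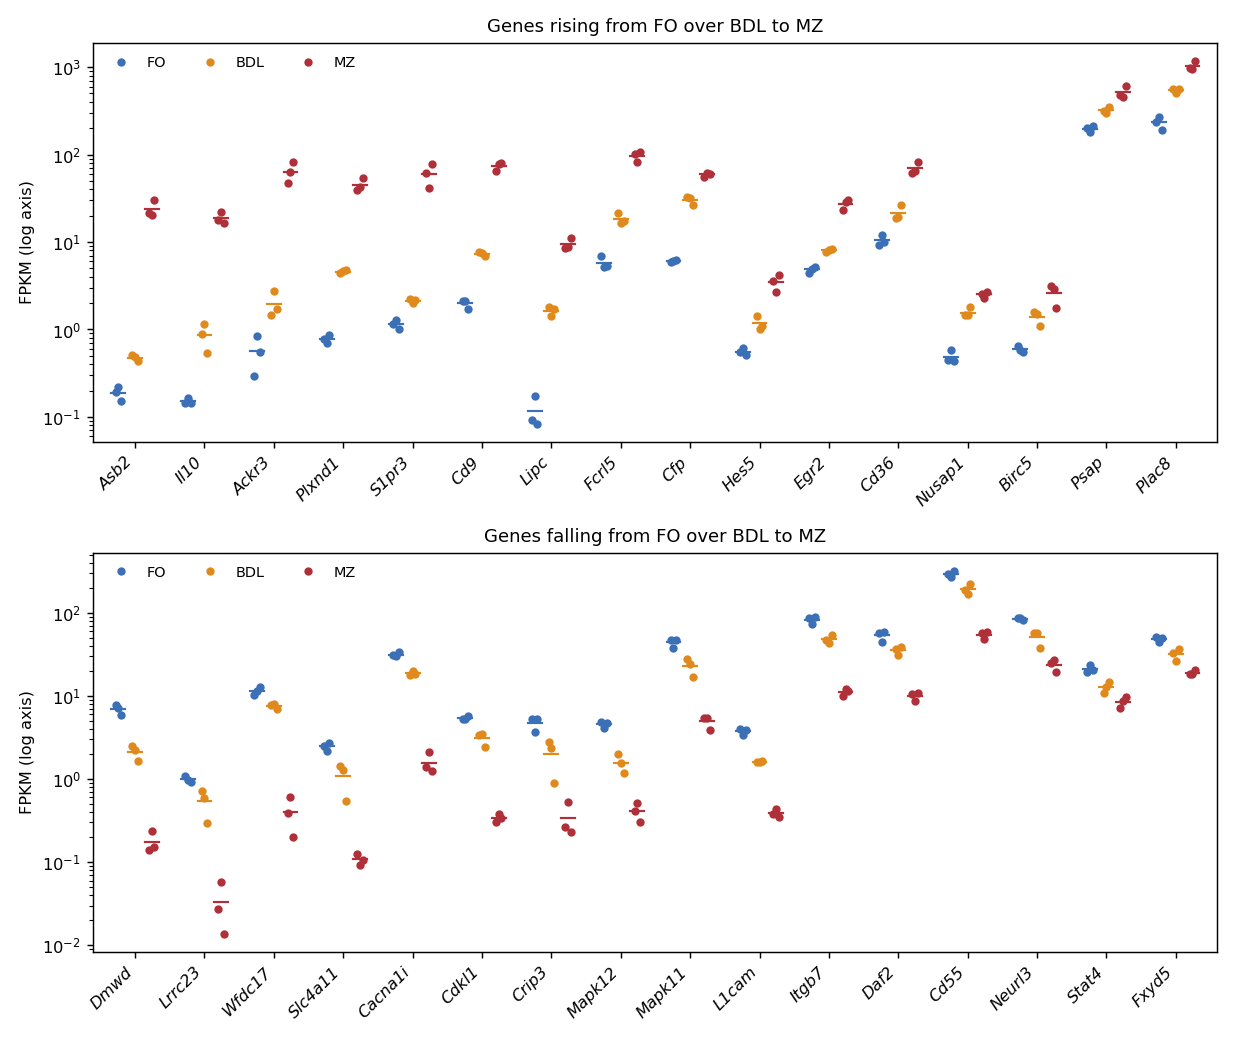
FPKM on a log axis for 16 rising genes (top) and 16 falling genes (bottom), with 1 point per library in FO (blue), BDL (orange) and MZ (red) and a bar at each mean of 3 libraries. No value overlaps between neighbouring subsets, as the rule requires; Il10 lies near FO on the linear scale, with BDL at 0.543 to 1.15 FPKM against 16.5 to 22.0 in MZ, whereas Cfp lies near the middle.

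Immune receptors and costimulatory molecules held 11 rising genes, with a median linear position of 14%. Fcrl5, an Fc receptor-like protein of innate-like B cells, read 6.90, 5.16 and 5.29 FPKM in FO, 21.2, 16.3 and 17.4 in BDL and 101, 81.4 and 108 in MZ. Cd36, a scavenger receptor, read 9.32, 12.0 and 10.1 FPKM in FO, 19.0, 19.3 and 26.6 in BDL and 60.8, 65.1 and 82.3 in MZ. Cd80, a ligand of CD28 and CTLA-4, was low in all subsets, at 0.209 to 0.307 FPKM in FO, 0.522 to 0.821 in BDL and 2.22 to 3.14 in MZ. For these receptors BDL were 2.07 to 3.16-fold above FO. Ly96, the MD-2 partner of TLR4, read 2.90 to 3.76 FPKM in FO, 4.60 to 6.68 in BDL and 18.7 to 24.7 in MZ. Bst1, a surface ectoenzyme also named CD157, had a large first step of 8.94-fold, from 0.0673 to 0.0928 FPKM in FO to 0.592 to 0.784 in BDL, and reached 3.76 to 5.28 in MZ. Its FO libraries held only 8.54 to 11.3 estimated fragments.

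Adhesion and membrane proteins rose in 10 genes and fell in 2. Cd9, a tetraspanin, read 2.12, 2.12 and 1.71 FPKM in FO, 7.66, 7.40 and 6.89 in BDL and 65.2, 77.2 and 79.1 in MZ, with steps of 3.69-fold and 10.1-fold. Its promoter with the RBPJ letters is shown above. Itgb1, the integrin beta 1 chain that pairs with several alpha chains, had a shallow gradient of 6.39 to 7.99 FPKM in FO, 10.2 to 14 in BDL and 18.7 to 25.1 in MZ. Itgb7, the integrin beta 7 chain of the gut homing receptor, went the other way, at 86.5, 73.0 and 88.8 FPKM in FO, 47.8, 43.0 and 53.8 in BDL and 10.0, 12.1 and 11.4 in MZ. BDL covered 48.3% of that fall, and the 3 sets of libraries were well apart. L1cam, an adhesion molecule of the immunoglobulin superfamily, read 3.36 to 3.98 FPKM in FO, 1.59 to 1.66 in BDL and 0.351 to 0.441 in MZ.

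Intracellular signalling, ubiquitin and cytoskeletal genes formed the largest named group, with 20 rising and 10 falling genes. Asb2, the substrate-binding part of a ubiquitin ligase and a known Notch target, read 0.191, 0.219 and 0.154 FPKM in FO, 0.507, 0.484 and 0.440 in BDL and 21.5, 20.3 and 30.6 in MZ. BDL covered 1.21% of that difference although they were 2.54-fold above FO. Coro2b and Nebl, which encode actin-binding proteins, and Plcd3, a phospholipase C, had the same shape. Their FO values were 0.0140 to 0.0484, 0.171 to 0.202 and 0.0583 to 0.102 FPKM, and their MZ values were 1.75 to 2.16, 8.36 to 10.4 and 3.29 to 4.30 FPKM. Their BDL values were 0.0486 to 0.0593, 0.388 to 0.656 and 0.156 to 0.268 FPKM, and for Coro2b the FO libraries held only 3.03 to 10.1 estimated fragments.

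The falling genes of this group included several kinases. Mapk11 and Mapk12, neighbours on chromosome 15 that encode the beta and gamma forms of the p38 kinase, lay 1783 bases apart on the same strand. Mapk11 read 46.9, 38.0 and 47.2 FPKM in FO, 27.8, 24.3 and 16.8 in BDL and 5.47, 5.47 and 3.93 in MZ. Mapk12 was about an order of magnitude lower, at 4.89, 4.16 and 4.78 FPKM in FO, 2.0, 1.57 and 1.17 in BDL and 0.407, 0.515 and 0.301 in MZ. In both genes the lowest BDL library was replicate 3. Dmpk, the myotonic dystrophy kinase, had the steepest fall, from 4.49, 3.58 and 3.36 FPKM in FO over 1.16, 1.08 and 0.315 in BDL to 0.0761, 0.113 and 0 in MZ. Its neighbour Dmwd, 1073 bases upstream on the same strand of chromosome 7, read 5.96 to 7.81 FPKM in FO, 1.65 to 2.53 in BDL and 0.141 to 0.235 in MZ. Cdkl1, a kinase related to the cyclin-dependent kinases, read 5.25 to 5.71 FPKM in FO, 2.44 to 3.51 in BDL and 0.300 to 0.377 in MZ. Neurl3, a ubiquitin ligase, was among the most abundant falling genes, at 83.1 to 86.5 FPKM in FO, 37.3 to 57.7 in BDL and 19.5 to 27.1 in MZ.

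Complement regulators fell together. Cd55, the decay-accelerating factor that protects cells from complement, read 297, 271 and 322 FPKM in FO, 190, 171 and 223 in BDL and 56.6, 48.4 and 58.0 in MZ. Its paralog Daf2, 16018 bases away on the same strand of chromosome 1, read 57.4, 44.9 and 59.0 FPKM in FO, 36.3, 31.2 and 38.6 in BDL and 10.6, 8.74 and 10.8 in MZ. Both fell 1.52-fold at the first step, and 3.59-fold and 3.53-fold at the second. As close copies, these genes could share reads, and their values are not independent. Among channels and transporters, Cacna1i, a T-type calcium channel, read 29.9 to 33.8 FPKM in FO, 17.8 to 20.1 in BDL and 1.24 to 2.09 in MZ. Slc4a11, a membrane transporter, read 2.20 to 2.74, 0.543 to 1.43 and 0.0934 to 0.126 FPKM in the same order, and Fxyd5, a regulator of the sodium pump, read 45 to 51.6, 26.6 to 36.4 and 18.3 to 20.5 FPKM.

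Transcription and chromatin genes rose in 9 cases and fell in 1. Hes5, a repressor induced by Notch, read 0.549, 0.617 and 0.507 FPKM in FO, 1.43, 1.0 and 1.11 in BDL and 3.56, 2.69 and 4.19 in MZ, and BDL covered 21.3% of the difference. Of its exonic bases, 31.8% also lie in an antisense transcript, and the labels describe the libraries as made without strand, so that reads of the pair may be mixed. Egr2, an immediate early transcription factor, read 4.46, 4.90 and 5.19 FPKM in FO, 7.76, 8.12 and 8.24 in BDL and 23.3, 28.6 and 30.4 in MZ. Bhlhe40, a repressor of the basic helix-loop-helix family, had a shallow gradient of 22.8 to 34.4 FPKM in FO, 36.8 to 52.0 in BDL and 57.8 to 81.4 in MZ. Stat4, the transcription factor downstream of IL-12, fell from 19.4, 23.6 and 20.7 FPKM in FO over 10.9, 12.9 and 14.6 in BDL to 7.06, 8.81 and 9.58 in MZ. Il12rb1, a chain of the IL-12 receptor that was noticed after its values were seen, rose instead, from 0.446 to 0.592 FPKM in FO over 0.750 to 1.2 in BDL to 1.67 to 1.87 in MZ.

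Cell division genes were the rising group in which BDL covered the largest median share of the FO to MZ difference, although the first step itself was larger in the receptors for guidance cues and in the secreted proteins. The first step was the larger in 8 of these 11 genes, the median steps were 2.22-fold and 1.69-fold, and the median linear position was 43.4% (range 17.6% to 52.8%). Nusap1, a spindle protein, read 0.442, 0.590 and 0.438 FPKM in FO, 1.45, 1.45 and 1.79 in BDL and 2.57, 2.31 and 2.68 in MZ. Birc5, which encodes survivin of the chromosomal passenger complex, read 0.650, 0.577 and 0.557 FPKM in FO, 1.59, 1.49 and 1.08 in BDL and 3.10, 2.91 and 1.75 in MZ. Both genes were low, and for Birc5 the gap between the highest BDL and the lowest MZ library was small. The summed levels of the listed G2/M and S phase genes, given below, were highest in BDL.

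Levels differed among the other division genes. Tpx2, a spindle assembly factor, read 0.317 to 0.404 FPKM in FO, 0.701 to 0.787 in BDL and 1.04 to 1.24 in MZ, and Kif23, a motor of cytokinesis, read 1.15 to 1.26, 1.62 to 2.17 and 2.60 to 3.17 FPKM. Cdca2 and Cdca3, named for their association with the cell division cycle, read 0.209 to 0.372 and 0.46 to 0.741 FPKM in FO, 0.624 to 0.784 and 0.932 to 1.45 in BDL and 1.18 to 1.21 and 1.7 to 2.6 in MZ. Gmnn, the inhibitor of replication licensing, had its larger step to MZ, at 3.14 to 3.41, 4.71 to 5.29 and 10.5 to 16.0 FPKM. In 8 of the 11 genes the lowest MZ library was replicate 3, whereas that library was the highest MZ library in 91 of all 141 rising genes. Mybl2, a transcription factor of dividing cells named after its values were seen, read 0.497 to 0.567, 0.87 to 1.14 and 1.83 to 2.42 FPKM.

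Lysosomal and endosomal genes ranged from low to abundant. Psap, the precursor of the saposins that activate lysosomal lipid hydrolases, read 203, 180 and 211 FPKM in FO, 318, 298 and 348 in BDL and 482, 456 and 601 in MZ. The 7 lysosomal and endosomal genes had a median linear position of 36.4%, and in 3 of them the second step was the larger. Pdia4, a disulphide isomerase of the endoplasmic reticulum, stood nearer to FO in BDL, at 56.3, 46.4 and 52.7 FPKM in FO, 85.2, 70.7 and 88.8 in BDL and 349, 324 and 346 in MZ. Odc1, the rate-limiting enzyme of polyamine synthesis, read 26.7 to 34.4 FPKM in FO, 40.9 to 51.9 in BDL and 158 to 267 in MZ. Cyp8b1, a sterol hydroxylase of bile acid synthesis, read 0.00944 to 0.0545, 0.119 to 0.164 and 1.28 to 1.58 FPKM, with 1.06 to 6.38 estimated fragments per FO library. It lies 3292 bases from Ackr2 on chromosome 9.

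Plac8, a small protein found in lymphoid and myeloid cells, was the most abundant rising protein-coding gene, at 234, 271 and 193 FPKM in FO, 567, 505 and 555 in BDL and 965, 943 and 1180 in MZ. The row of the microRNA gene Mir704 read higher still, at 200 to 288 FPKM in FO, 340 to 526 in BDL and 1160 to 1593 in MZ. Its hairpin of 77 nt lies within Pdia4 on the same strand (mm9, chromosome 6, 47753575 to 47753651), and 14 of its bases are exonic in Pdia4. Its mature sequence is given to show what the row names, with the seed, bases 2 to 8, in capitals.
mmu-miR-704: aGACAUGUgcucugcuccuag
mRNA libraries do not measure mature microRNAs, and reads of Pdia4 and of the hairpin cannot be told apart here. The ratio of MZ to FO was 5.26 for Mir704 and 6.56 for Pdia4.

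Among rising genes with little known function, I830077J02Rik read 0.459 to 0.791 FPKM in FO, 1.31 to 1.91 in BDL and 69.4 to 86.6 in MZ. Plscr1, a phospholipid scramblase, read 1.78, 2.54 and 1.68 FPKM in FO, 4.18, 5.32 and 3.81 in BDL and 11.1, 18.3 and 11 in MZ. Mpeg1, which encodes the pore-forming perforin-2 and is also a macrophage gene, read 3.34, 4.99 and 3.51 FPKM in FO, 11, 13.8 and 10.5 in BDL and 43.2, 47.8 and 46.4 in MZ. It was the 1 graded gene among 17 listed myeloid cell markers, of which 12 were tested, beside 1.22% rising over all rows. The summed level of the other 16 was 14.3 to 23.1 FPKM in FO, 16.2 to 25.5 in BDL and 20.8 to 33.4 in MZ, and Lyz2, the lysozyme of macrophages, read at most 3.25 FPKM in any library. The part of other cells in the level of Mpeg1, Sirpa, Ccr1 and Csf2rb, which macrophages also express, was not tested.

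The remaining steep falls were in genes of varied or little known function. Wfdc17, a small secreted protein, read 10.2 to 12.8 FPKM in FO, 6.87 to 7.90 in BDL and 0.198 to 0.611 in MZ. Fam101b read 14.8, 17.8 and 17.4 FPKM in FO, 6.68, 8.23 and 13 in BDL and 1.31, 1.38 and 1.09 in MZ, with BDL replicate 3 nearest to FO. Crip3 had its BDL libraries spread the other way, at 2.78, 2.37 and 0.907 FPKM, between 3.64 to 5.34 in FO and 0.233 to 0.529 in MZ. Gm11346 read 13.6 to 17.5, 8.59 to 12.6 and 0.538 to 1.2 FPKM, and 4632428C04Rik read 2.68 to 3.37, 1.36 to 2.19 and 0.244 to 0.370 FPKM in FO, BDL and MZ. Cpne5, a calcium-dependent phospholipid-binding protein, read 1.26 to 1.64, 0.538 to 0.882 and 0.0742 to 0.145 FPKM. Lrrc23 read 0.920 to 1.10, 0.298 to 0.717 and 0.0138 to 0.0582 FPKM, with 1.10 to 5.52 estimated fragments per MZ library.

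Further members of these groups, named after their values were seen, fill in the range between the steep and the shallow gradients. Among enzymes, Alpl, an alkaline phosphatase, rose by 7.51-fold from 0.349 to 0.504 FPKM in FO to 2.47 to 3.37 in BDL, and reached 11.4 to 11.9 in MZ. Dnase1l3, a secreted nuclease that degrades DNA in chromatin, had a first step of 6.93-fold, from 0.833 to 1.21 FPKM in FO to 6.35 to 7.14 in BDL, with 19.6 to 33 in MZ. In both, the first step was larger than in most rising genes. Grn, which encodes the lysosomal protein progranulin, had nearly equal steps, at 14 to 14.5, 31.3 to 34.1 and 75.1 to 82.9 FPKM in FO, BDL and MZ. Ctsb, the lysosomal protease cathepsin B, read 12.9 to 14.1, 18.7 to 25.2 and 29.9 to 42.9 FPKM.

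Receptors and signalling proteins shared with myeloid cells were among the rising genes. Csf2rb, the common beta chain of the receptors for GM-CSF, IL-3 and IL-5, read 1.93 to 2.03 FPKM in FO, 4 to 5.59 in BDL and 23.1 to 24.1 in MZ. Its close copy Csf2rb2 read 0.416 to 0.497, 0.608 to 0.861 and 2.76 to 3 FPKM, and reads could be split between the pair. Sirpa, an inhibitory receptor that binds CD47, read 1.08 to 1.17, 2.34 to 2.45 and 11.4 to 15.5 FPKM. In these receptors BDL lay nearer to FO than to MZ. Ptpn22, a phosphatase that limits antigen receptor signalling, read 8.41 to 10.5, 15.7 to 20.1 and 46.7 to 48.5 FPKM, and Rgs10, which shortens G protein signalling, read 1.47 to 1.56, 5.25 to 6.32 and 49.5 to 65.1 FPKM. Tet1, an enzyme that oxidizes methylated DNA, read 0.332 to 0.342, 0.772 to 0.861 and 1.16 to 1.4 FPKM. Mxd4, a repressor that competes with Myc for its partner Max, read 21.3 to 24.8, 35.2 to 40.7 and 58.9 to 71 FPKM.

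Falling genes outside the steepest included more signalling proteins. Dusp3, a phosphatase of MAP kinases, read 5.21 to 6.31 FPKM in FO, 2.83 to 3.35 in BDL and 0.768 to 1.41 in MZ. Gna15, a G protein alpha subunit of blood cells, read 4.82 to 5.43, 2.79 to 3.2 and 1.37 to 1.74 FPKM, and Rab6b, a small GTPase of Golgi traffic, read 1.94 to 2.44, 1.06 to 1.74 and 0.61 to 0.826 FPKM. Their falls from FO to MZ were 5.72, 3.19 and 3.11-fold, less than those of Dmwd and Wfdc17.

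At the limit of the rule, the rising genes Gm13154, Zc3h12c and Plekha5 were just inside, with a smaller step of 1.506, 1.508 and 1.509-fold. Lgals3bp, Golim4 and Tfdp1 were just outside at 1.495, 1.494 and 1.491-fold. Among the falling genes, Gm11346, Slc26a10 and Stat4 were inside at 1.501, 1.509 and 1.512-fold, and Gamt, Nacad and Lfng outside at 1.4997, 1.494 and 1.490-fold. With the order and the absence of overlap kept and no limit on the steps, 403 rows rose and 224 fell. Gm13154 and the related rows Gm13051, Gm13139 and Gm13251 on chromosome 4 are members of a multigene family and are uncertain.

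The same rule was then applied with another subset in the middle. With FO in the middle, 84 rows passed, of which 32 rose from BDL over FO to MZ and 52 fell. With MZ in the middle, 14 passed. The counts with BDL in the middle were 141 and 36, and these counts are a description of the same values that chose the genes. Genes of the transitional stage were among those with BDL at an end: Cd93, Lef1 and Sox4 were highest in BDL, although every gate was set as CD93 negative. By flow cytometry, the study also found surface CD93 to be highest in BDL among these subsets, and it describes BDL as CD93 intermediate. Hes1, a Notch target like Hes5, was lowest in BDL, at 8.73 to 16.0 FPKM against 18.4 to 20.5 in FO and 33.8 to 66.4 in MZ.

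A further reading of the same 9 libraries came from the sort dates. Genes were chosen by the rule on 2 dates and then read on the date left out. With dates 1, 2 and 3 left out, 129, 131 and 124 of the rising genes chosen were among the graded genes. The 3 sets thus largely overlap, and their readings are not independent of each other or of the graded genes. Of 153, 167 and 163 rising genes so chosen, 97.4%, 97.6% and 88.3% kept the order FO, BDL, MZ on dates 1, 2 and 3, and 80.4%, 64.7% and 68.7% had both steps of at least 1.5-fold. Of 39, 50 and 44 falling genes, 97.4%, 86.0% and 95.5% kept the order and 71.8%, 54.0% and 56.8% had both steps. Among all rows that reached the minimum level, 17.1% to 20.4% were in rising and 12.6% to 19.2% in falling order on a given date. Both steps were found in 1.70% to 1.86% and 0.433% to 0.834% of them. Such rows were not chosen for a difference between subsets, so that a higher share among chosen genes could be foreseen. On the date left out, the median log2 ratios of FPKM + 0.1 for the rising genes were 0.79 to 0.95 at the first step and 1.26 to 1.62 at the second.

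**Figure D4:**
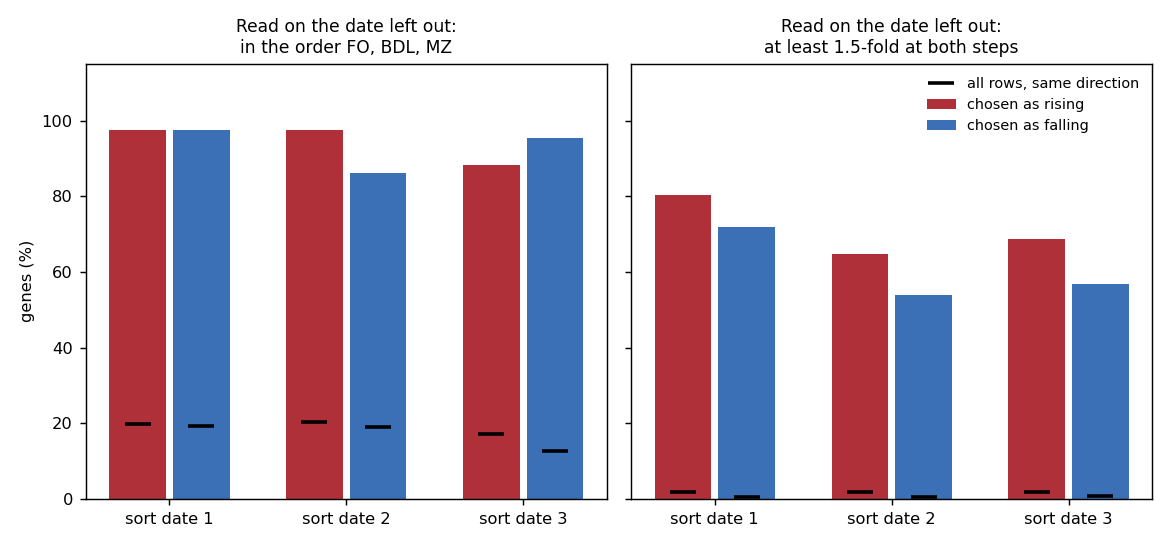
Percent of genes (y axis) that kept the order FO, BDL, MZ (left) or had both steps of at least 1.5-fold (right) on the sort date that their choice did not use (x axis), for genes chosen as rising (red) and falling (blue). Black marks give the same share among all rows in that direction, which were not chosen for a difference between subsets. Every bar stands above its mark, with 54.0% as the lowest bar on the right.

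Genes listed as typical of MZ and FO B cells placed BDL differently. Of 16 MZ genes, 8 were graded, all rising: Cd9, S1pr3, Asb2, Plxnd1, Ackr3, Fcrl5, Cd36 and Cd80. The share among all rows was 1.22%. Of these 16 genes, 13 were called higher in MZ than in FO by limma, as were 642 of all rows tested. All 141 rising genes are among those 642 rows, which are the closer background for this list. This list was drawn up with earlier results of these data known, so that the count is not independent support. The most abundant MZ genes were not graded. Cr2, the CD21 gene used for the gates, read 97.8 to 114.9 FPKM in BDL, 136 to 150 in FO and 400 to 505 in MZ. Dtx1, a Notch target, read 35.4 to 41.7 FPKM in FO, 36.3 to 38.8 in BDL and 210 to 271 in MZ. By limma, Dtx1 differed by a log2 of -0.04 ± 0.12 (SE) between BDL and FO (adjusted p = 0.875) and by 2.63 ± 0.12 between MZ and BDL (adjusted p = 3.42e-06). Cd1d1, which presents lipids, read 16.2 to 16.6, 15.4 to 24.9 and 89.2 to 147 FPKM, and Mzb1, a chaperone of antibody assembly, read 98.4 to 106, 117 to 156 and 265 to 361 FPKM in FO, BDL and MZ. Neither passed limma between BDL and FO, with adjusted p = 0.420 for Cd1d1 and 0.158 for Mzb1.

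Of 12 FO genes, 1 was graded, Itgb7, against 0.31% of all rows. Of these 12 genes, 9 were called lower in MZ than in FO by limma, as were 393 of all rows tested. All 36 falling genes are among those 393 rows, which are the closer background here. Klf2, which maintains naive homing receptors, read 399 to 468 FPKM in FO, 303.1 to 358 in BDL and 179 to 249 in MZ. Its log2 difference was -0.41 ± 0.14 between BDL and FO (limma, adjusted p = 0.122) and -0.60 ± 0.14 between MZ and BDL (adjusted p = 0.0159), and its means fell by less than 1.5-fold at the first step. Fcer2a, the CD23 gene used for the gates, and Ccr7, a chemokine receptor that draws B cells to the border of the follicle, read 389 to 476 and 252 to 375 FPKM in BDL. In FO they read 448 to 538 and 251 to 323 FPKM, and in MZ 26.0 to 34.5 and 63.7 to 108 FPKM. Neither was called by limma between BDL and FO, with adjusted p = 0.368 for Fcer2a and 0.755 for Ccr7, and each was called lower in MZ than in BDL.

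**Figure D5:**
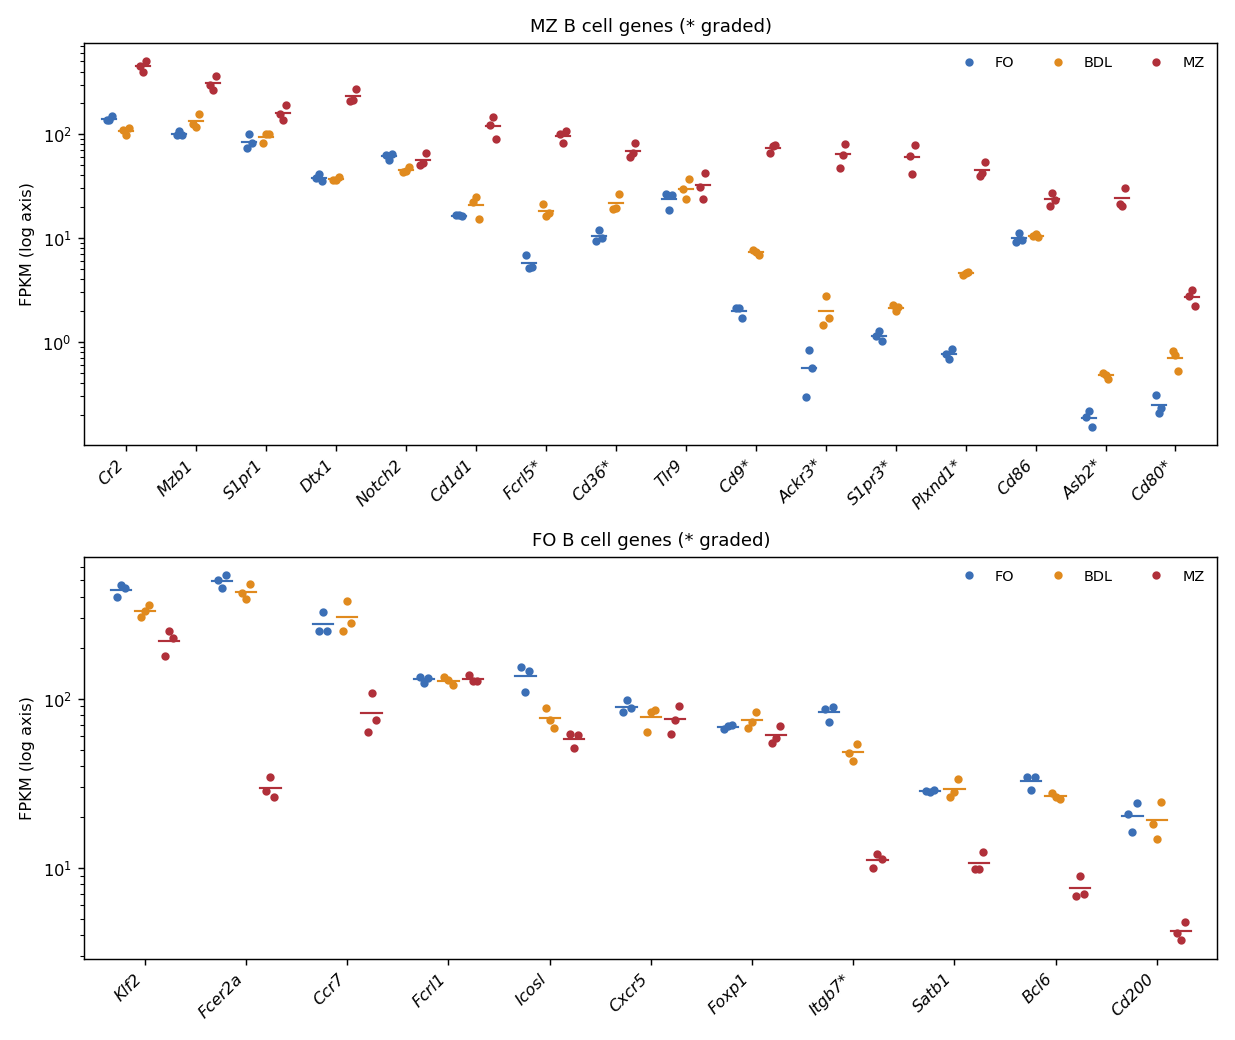
FPKM on a log axis in each library for the 16 listed MZ B cell genes (top) and 11 of the listed FO B cell genes (bottom), with bars at the means of 3 libraries and an asterisk on graded genes. In 8 MZ genes the BDL libraries lie between the other subsets without overlap, whereas for Cr2 and Dtx1 they lie at or below the FO libraries; among the FO genes Itgb7 is graded.

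The counts in the lists below are to be read beside the shares over all rows, 1.22% rising and 0.31% falling. In the Notch pathway, 1 of 20 tested genes, Hes5, was graded and rose. Lfng, a glycosyltransferase that modifies Notch, came close, at 14.9 to 20.7 FPKM in FO, 10.5 to 13.9 in BDL and 4.09 to 6.23 in MZ, and was not called by limma between BDL and FO (adjusted p = 0.102). Among Toll-like receptors and their partners, Ly96 was graded out of 15 tested, whereas Tlr7 read 11 to 11.8, 12.7 to 18.7 and 22.8 to 39.7 FPKM and was not called between BDL and FO (limma, adjusted p = 0.230). Egr2 was the 1 graded gene of 18 immediate early genes. Myc, a driver of cell growth, read 116 to 141 FPKM in FO, 102 to 109 in BDL and 380 to 518 in MZ and was not intermediate. Pdia4 was graded out of 28 genes of folding and secretion, and Il10 and Cd80 out of 24 cytokine and costimulatory genes.

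In the list of homing and adhesion receptors, 4 of 26 tested genes rose (S1pr3, Ackr3, Ackr2 and Itgb1) and Itgb7 fell. Ccr6, a chemokine receptor, is an example of a receptor at the MZ level in BDL. It read 81.1 to 88.6 FPKM in FO, 34.9 to 38.2 in BDL and 37.4 to 47.1 in MZ, with a log2 difference of -1.23 ± 0.10 between BDL and FO (limma, adjusted p = 0.000551) and 0.16 ± 0.10 between MZ and BDL (adjusted p = 0.294). Of 43 tested G2/M genes 6 rose, and of 38 tested S phase genes 1 rose, beside 1.22% of all rows. The summed level of both lists was lower in MZ than in BDL, whereas the median of the G2/M genes rose at both steps. Between FO and MZ, limma called 16 of the 43 G2/M genes higher and 2 lower in MZ. Of the 38 S phase genes it called 7 higher and 0 lower, beside 5.54% and 3.39% of all rows. The median log2 ratios of BDL over FO and MZ over BDL were 0.28 and 0.10 for G2/M genes. For S phase genes they were 0.35 and -0.17. The summed G2/M level was 369 to 405 FPKM in FO, 409 to 486 in BDL and 359 to 376 in MZ. The summed S phase level was 338 to 363, 403 to 450 and 371 to 392 FPKM. Other cycle genes were already high in BDL. Uhrf1, which maintains DNA methylation at replication, read 1.80 to 1.94 FPKM in FO, 6.12 to 6.82 in BDL and 4.29 to 5.39 in MZ, and was highest in BDL, with a log2 difference of 1.74 ± 0.10 between BDL and FO (limma, adjusted p = 0.000125) and -0.40 ± 0.10 between MZ and BDL (adjusted p = 0.0192). Cks2, a cyclin-dependent kinase subunit, read 6.86 to 9.12, 13.9 to 17.9 and 16.4 to 18.9 FPKM, with a log2 difference of 1.04 ± 0.13 between BDL and FO (limma, adjusted p = 0.00363) and 0.10 ± 0.13 between MZ and BDL (adjusted p = 0.612). Of 10 B-1 cell genes, 2 were graded, Bhlhe40 and Plscr1. In this list limma called 6 genes higher in BDL than in FO, beside 1.64% of all rows. Between BDL and MZ it called 2 higher and 2 lower in MZ, beside 4.34% and 3.47%. The list's median log2 ratios at the 2 steps were 1.51 and 0.19. Zbtb32, Bhlhe41 and Spn of this list passed the rule with another subset in the middle and were highest in BDL. Ahr, the aryl hydrocarbon receptor, overlapped between subsets, at 0.731 to 3.04 FPKM in FO, 2.55 to 6.73 in BDL and 14.8 to 38.5 in MZ. No gene was graded among the lists for transitional, germinal centre and plasma cells, B cell receptor signalling, quiescence factors, T cells, dendritic cells, NK cells or erythroid cells and platelets.

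For all rows, limma called 190 rows higher (1.64%) and 31 lower (0.267%) in BDL than in FO, and 49 lower when the sort date was a block. Between BDL and MZ, 503 rows were higher (4.34%) and 402 lower (3.47%) in MZ. Between FO and MZ, 642 were higher (5.54%) and 393 lower (3.39%) in MZ. A call needed an adjusted p under 0.05 and at least 2-fold. Of the 141 rising genes, 58 met this at the first step, 96 at the second, 48 at both and 35 at neither, and of the 36 falling genes 6, 25, 5 and 10. These counts restate values that chose the genes. The 642 rows higher in MZ had a median log2 ratio of 0.36 between BDL and FO and 1.252 between MZ and BDL. The 393 lower rows had medians of -0.15 and -1.42, and all rows tested had medians of 0.05 and -0.06.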

How the data were processed

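RNA was sequenced from 9 libraries of sorted splenic B cells, 3 each of FO, BDL and MZ. The authors aligned reads to mm9 with TopHat2 (version 2.1.0) and computed expression with Cufflinks, and the deposited values are FPKM, 1 per gene row and library, used here without further scaling. Libraries are described as single end without strand in the labels, and as a stranded mRNA kit in the study's methods. The labels and the study name different strains, C57/BL6 and B10.PL. The study's Cuffdiff comparisons were not analysed here. Subset and sort date came from the labels, and libraries of 1 date share a replicate number and a day, which pairs them. The correlation of their deviations from the subset means was -0.062 to 0.244.

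The table gives no counts. In transcripts of at least 3000 nt, low FPKM values fell on a grid whose spacing gives the size of 1 fragment. On this grid 64.0% to 75.6% of low values were whole to within 0.1, where 20% would be at random. The depth relative to FO replicate 1 was then 0.903 to 1.22. Estimated fragments follow from this spacing and from the longest transcript. In 12 rising and 3 falling genes the lowest subset had under 10 estimated fragments in at least 1 library.

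The graded genes and the gene lists were chosen with earlier results of these data known. limma (version 3.58.1, R 4.3.3) was fitted to log2(FPKM + 0.1) of all 11597 rows with a trend and Benjamini-Hochberg adjustment over all rows; all fold changes from limma are on that scale and understate those of low genes. Its p-values measure the spread between pools. Ratios of graded genes are of mean FPKM. Python 3.11.15 was used for the rule, and both the rule and limma were tested on simulated data. The text names graded genes found in a list, the 15 steepest and the 5 most abundant in each direction, the 3 rows on each side of the limit, small RNA rows, and 2 to 4 listed genes not graded with the highest means among those called between MZ and FO. Any other gene was chosen after its values were seen. Positions in mm9 are from GENCODE. Some genes that this rule would name are not reported here.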

Additional observations from a re-analysis of the deposited data

How the results depend on the processing

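The count of graded genes depended most on the limits of the rule. With no minimum level 247 rows rose and 55 fell, with a step limit of 25% 277 and 106, and with steps of 2-fold 55 and 8. Allowing overlap gave 192 rising and 61 falling rows. With 0.1 FPKM added to the means, geometric means, a minimum of 1 FPKM, upper quartile scaling, quantile normalization or summed repeats, the rising count was 114 to 144 and the falling count 28 to 42. Upper quartile scaling moved the median log2 ratio of all rows between MZ and BDL by 0.106, the largest such shift of both scalings. All 141 rising and 36 falling genes kept the order of their means under both scalings. Because the rule required steps of at least 1.5-fold, shifts of this size could hardly change that order. Leaving out a library or a sort date gave 134 to 167 rising and 30 to 50 falling rows, and 96 rising and 22 falling genes were kept whichever library was left out. As a replicate block, ratios within sort dates gave 132 rising and 43 falling rows, of which 123 and 34 were graded genes. In limma, the replicate block moved the rows lower in BDL than in FO from 31 to 49 and changed no other count by over 1.5 times. With 1 FPKM added in place of 0.1, limma called 78 rows higher and 16 lower in BDL than in FO, 267 lower in MZ than in BDL and 406 higher in MZ than in FO. Without a library, rows lower in BDL than in FO numbered 15 to 31, with 17 without FO replicate 1 and 15 without FO replicate 3. Low genes limit the folds, since few fragments lie behind them.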
